A study of Mus musculus with 10 samples.

Results

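The genes described here encode the 3 TET dioxygenases (Tet1, Tet2 and Tet3), the DNA glycosylases Tdg and Smug1, and Ogt, the enzyme that attaches O-GlcNAc to proteins. They are 6 of the 21887 protein-coding genes of the mm10 build whose spans were used. TET2 occupancy was mapped with ChIP-seq. The cells were embryonic stem (ES) cells of the mouse, kept in serum and LIF with inhibitors of GSK-3 and MEK1. Wild-type Tet2fl/fl cells and Tet2-/- knockout cells were precipitated with a rabbit polyclonal antibody to the TET2 N terminus. Tet2fl/fl cells whose own Tet2 gene carries a double FLAG tag, and untagged Tet2fl/fl parental cells, were precipitated with anti-FLAG M2 gel. Each of these 4 groups had 2 libraries, and each library had 1 peak list. Wild-type and FLAG-TET2 lists are called target lists, and knockout and parental lists control lists. A peak was given to a gene if it overlapped the gene span, or if that span was the nearest one and lay within 50 kb. By this rule 187 of 209774 peaks belonged to the 6 genes. The labels give neither the number of cell clones nor whether replicates were separate cultures, so the spread between 2 libraries may be technical. No expression was measured, so the ES cell label could not be checked against marker genes. In chromatin from many cells, more cells bound and more binding per cell cannot be told apart.

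TET enzymes oxidise 5-methylcytosine to 5-hydroxymethylcytosine and then to 5-formylcytosine and 5-carboxylcytosine. TDG cuts 5-formylcytosine and 5-carboxylcytosine out of DNA, and base excision repair fills the gap with an unmodified cytosine. SMUG1 removes uracil and the oxidised base 5-hydroxymethyluracil. OGT binds TET2 and TET3 and modifies chromatin proteins. Mouse ES cells are known to express Tet1 and Tet2 strongly and Tet3 weakly. TET1 and TET3 carry a CXXC zinc finger that binds CpG-rich DNA, while in TET2 that part became a separate gene, Cxxc4.

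The lists differed widely in length, with 38536 and 18820 wild-type and 63578 and 28245 FLAG-TET2 peaks, against 2259 and 11696 knockout and 36518 and 10122 parental peaks in replicates 1 and 2. Read depth was not given in the sources used here. A longer list can therefore hold more peaks at a gene with no change in binding, and parental replicate 1 was as long as a target list.

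Tet1 and Tet2 had the most peaks of the 6 genes in the target lists, and Tdg the fewest. Tet1 had 13 and 9 peaks in wild-type lists and 0 and 0 in knockout lists. With the FLAG gel it had 25 and 9 peaks in FLAG-TET2 lists and 11 and 1 in parental lists. Both wild-type values thus lay above both knockout values, while FLAG-TET2 replicate 2 lay below parental replicate 1. Tet2 had 8 and 4 peaks in wild-type, 0 and 1 in knockout, 17 and 10 in FLAG-TET2 lists and 9 and 0 in parental lists. For this gene the groups did not overlap with either reagent. Tet3 had 3 and 2 peaks in wild-type, 1 and 1 in knockout, 7 and 4 in FLAG-TET2 lists and 4 and 2 in parental lists. Ogt had 2 and 1 peaks in wild-type, 0 and 0 in knockout, 5 and 4 in FLAG-TET2 lists and 3 and 1 in parental lists. Ogt was separated with both reagents and Tet3 with the antibody alone. Smug1 had 5 and 1 peaks in wild-type, 0 and 1 in knockout, 7 and 2 in FLAG-TET2 lists and 4 and 1 in parental lists. Tdg had 2 and 0 peaks in wild-type, 0 and 0 in knockout, 2 and 2 in FLAG-TET2 lists and 2 and 1 in parental lists. Neither Smug1 nor Tdg was separated with either reagent.

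**Figure D1:**
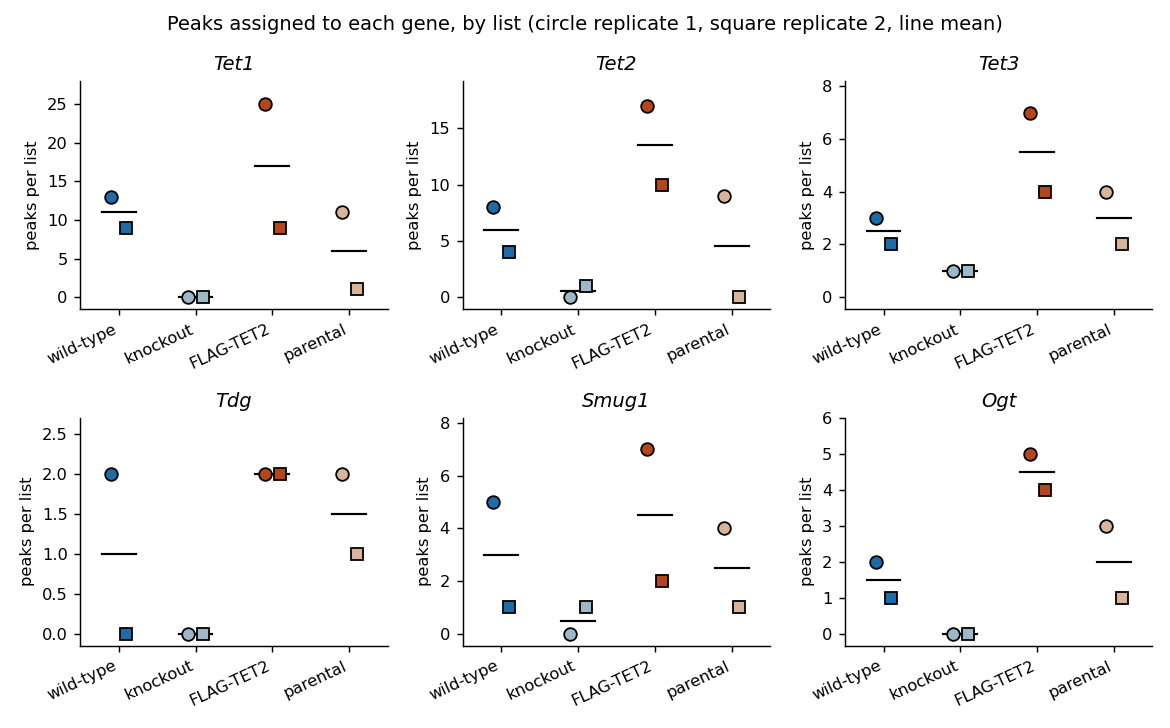
Number of peaks given to each gene (y axis) in wild-type, knockout, FLAG-TET2 and parental lists (x axis). Circles are replicate 1, squares replicate 2 and black lines the mean of the 2 lists. The 2 wild-type values of Tet1, 13 and 9, stand above 0 and 0 in knockout, while parental replicate 1 holds 11 peaks.

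Wild-type lists exceeded knockout lists without overlap at 4 of the 6 genes, beside 36.6% of the 17182 genes with at least 1 peak. FLAG-TET2 lists exceeded parental lists without overlap at 2 of the 6 genes, beside 18.8% of genes. None of the 6 had more peaks in every target list than in every control list, beside 6.19% of genes. Without parental replicate 1 this held for Tet1 and Tet2, beside 21.5% of genes. On a log2(peaks + 1) scale, target minus control differences, averaged over the 2 reagents, were 2.64 for Tet1, 2.20 for Tet2, 1.12 for Ogt, 0.96 for Smug1, 0.75 for Tet3 and 0.54 for Tdg. Their median was 1.04, beside 0.58 over all genes with a peak. The sign was positive for 6 of 6 genes, as it was for 14760 of 17182. A two-sided exact permutation test over libraries, with labels moved within each reagent, cannot give a p below 0.0556, so no gene could pass 0.05. Tet2 and Ogt reached that smallest p, with an adjusted p of 0.462 over all genes in the exact test. The exact permutation p was 0.111 for Tet1 and Tet3, 0.222 for Smug1 and 0.500 for Tdg.

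Peaks that overlapped by 1 bp or more were joined across the 8 lists, which gave 65 regions at the 6 genes among 79350 in all. Tet1 had 25 regions, Tet2 18, Smug1 9, Tet3 6, Ogt 5 and Tdg 2. Of the genes with a peak, 99.4% had as few regions as Tet1 or fewer, and 98.5% as few as Tet2 or fewer. The same share was 92.3% for Smug1, 83.7% for Tet3, 78.5% for Ogt and 46.5% for Tdg. The longest list, FLAG-TET2 replicate 1, had a peak in 24 regions of Tet1 (96%) and 16 of Tet2 (88.9%), beside 77.3% of all merged regions. It was the only list with a peak in 8 regions of Tet1 (32%) and 4 of Tet2 (22.2%), beside 21.5% of all. The Tet1, Tet2 and Tet3 spans measured 82.9, 81.5 and 94.8 kb, and the part of span length in region number was not tested. A region was called common if every one of the 4 target lists, but no control list, had a peak in it. Common regions were found at Tet1 (2), Tet2 (1), Tet3 (1) and Smug1 (1), thus at 4 of 6 genes, beside 17.3% of genes with a peak. They were 5 of the 65 regions (7.69%), beside 5.70% of all merged regions. Without parental replicate 1 the number was 6 at Tet1 and 3 at Tet2, and 26.4% of genes then had a common region. Among the regions added were those 1.69 kb into Tet1 and at the start of Tet2. There the highest folds of parental replicate 1 were 6.83 and 15.4, above every target list. Their summits lay apart from those of the highest target folds. Without regard to controls, 5 of 6 genes had a region in all 4 target lists, beside 47.1% of genes, and Tdg had none. Of the 65 regions 14 (21.5%) were in all 4 target lists, beside 15.0% of all merged regions. Knockout peaks lay in 3 regions (4.62%), beside 14.1% of all merged regions. Parental peaks were far more frequent, in 30 regions (46.2%), beside 41.8% of all.

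Tet1 lies on the minus strand of chromosome 10 (62804570 to 62887469, mm10; gene ID 52463), with Slc25a16 33.2 kb upstream and Ccar1 12.2 kb downstream. The strongest peaks stood upstream of the gene, in a cluster of 10 regions whose summits were 4.24 to 15.7 kb from the start site. Wild-type lists held 5 and 4 peaks there and knockout lists 0 and 0, and FLAG-TET2 lists held 10 and 4 and parental lists 4 and 0. The region 9.74 kb upstream (62896712 to 62897258) had wild-type folds of 17.6 and 12.5 and FLAG-TET2 folds of 22.6 and 11.7 in replicates 1 and 2, no knockout peak, and a fold of 7.71 in parental replicate 1. Folds here are the authors' linear enrichment values, one per peak. These peaks ranked above 97.6% and 96.5% of wild-type peaks and above 96.3% and 88.9% of FLAG-TET2 peaks by −log10 q, and the parental peak above 64.3% of its own list. The region 5.70 kb upstream (62892610 to 62893281) had wild-type folds of 16.2 and 8.96 and FLAG-TET2 folds of 19.5 and 12.2, against 6.64 in parental replicate 1. The region 11 kb upstream (62897963 to 62898508) had wild-type folds of 10.6 and 7.67 and FLAG-TET2 folds of 12.9 and 9.78, against 6.18 in parental replicate 1. Between them, 8.32 kb upstream, lay a common region (62895486 to 62896089) with wild-type folds of 13 and 6.91 and FLAG-TET2 folds of 11 and 8.52.

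In the 4 regions of this cluster found in every target list, target summits were nearly identical between libraries and reagents. At 9.74 kb the 4 target summits spanned 13 bp (−9732 and −9745 bp in wild-type, −9735 and −9744 bp in FLAG-TET2), and the parental summit was at −9748 bp. At 5.70 kb the 4 target summits spanned 11 bp, but the parental summit lay at −5395 bp, 312 bp from the farthest of them. At 11 kb the target summits spanned 29 bp and at 8.32 kb 58 bp. The region 4.24 kb upstream had peaks only in FLAG-TET2 replicate 1 and parental replicate 1, with summits 298 bp apart. The median span was 58 bp over the 11 regions of the 6 genes with 1 peak in each target list, and 70 bp over 8436 such regions in all.

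A further 15 regions overlapped the Tet1 span, up to 43.2 kb from the start site. A common region 21.9 kb into the gene (62865229 to 62865628) was weak, with wild-type folds of 7.89 and 3.98 and FLAG-TET2 folds of 6.37 and 4.08. It ranked above only 4.78% of peaks in wild-type replicate 2 and 10.1% in FLAG-TET2 replicate 2. A region 38.3 kb into the gene (62848875 to 62849131) had peaks in 3 target lists and in no control list, with wild-type folds of 9.02 and 6.71 and a fold of 14.1 in FLAG-TET2 replicate 1. Near the start site the picture differed from that upstream. The region 0.982 kb into the gene had wild-type folds of 6.89 and 6.17 and FLAG-TET2 folds of 7.16 and 4.24, against 7.07 and 5.15 in the parental lists. The region 1.69 kb into the gene had wild-type folds of 5.55 and 4.51 and FLAG-TET2 folds of 6.01 and 5.44, against 6.83 in parental replicate 1. The highest parental folds in both regions were thus within the target range or above it, but their summits lay apart from the target summits. In the first region the fold of 7.07 had its summit at 609 bp, against 894 to 1032 bp in target lists. Another peak of parental replicate 1 there, with its summit at 1005 bp, had a fold of 4.68, above only FLAG-TET2 replicate 2. In the second region the parental summit was at 1426 bp, against 1628 to 1746 bp for the highest target folds. A region 0.268 kb into the gene had folds of 4.45 in wild-type replicate 1 and 7.59 in FLAG-TET2 replicate 1, against 8.37 in parental replicate 1. The RefSeq promoter window of Tet1 (chr10:62887275-62887574, minus strand) was overlapped by both wild-type lists, FLAG-TET2 replicate 1 and parental replicate 1. It is printed with its CG dinucleotides, the main substrate context of TET enzymes, in capitals:
Tet1 promoter: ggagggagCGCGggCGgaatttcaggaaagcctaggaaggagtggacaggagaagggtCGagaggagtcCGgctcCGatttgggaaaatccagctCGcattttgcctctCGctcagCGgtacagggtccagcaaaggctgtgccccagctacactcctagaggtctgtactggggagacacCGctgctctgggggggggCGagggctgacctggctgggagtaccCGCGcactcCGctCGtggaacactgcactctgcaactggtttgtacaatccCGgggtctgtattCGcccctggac
The folds there were 8.38 and 8.71 in wild-type lists and 5.59 in FLAG-TET2 replicate 1, against 6.4 in parental replicate 1. The wild-type summits were at −202 and −244 bp, the FLAG-TET2 summit at −229 bp and the parental summit at −174 bp.

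Tet2 lies on the minus strand of chromosome 3 (133463677 to 133545136, mm10; gene ID 214133), far from its neighbours, with Cxxc4 691 kb upstream and Ppa2 85.4 kb downstream. It is both the gene of the mapped protein and the gene altered in knockout and FLAG-TET2 cells. The labels do not say which part is deleted, and no peak can be called in DNA that is missing, so a missing knockout peak inside Tet2 is not a measure of lost binding. The knockout cells did have 1 peak in the gene, in replicate 2, at a region 19.6 kb from the start site (133524447 to 133525279). That region had wild-type folds of 14.1 and 8.0 and FLAG-TET2 folds of 20.2 and 12.4, against 8.08 in knockout replicate 2 and 5.98 in parental replicate 1. The 6 summits there lay within 106 bp of each other. A region 10.1 kb into the gene (133533998 to 133534475) had no knockout peak, with wild-type folds of 16.6 and 9.24 and FLAG-TET2 folds of 15.2 and 8.02, against 5.53 in parental replicate 1. The wild-type replicate 1 peak there ranked above 98.2% of its list. A region beside it, 10.8 kb into the gene, was in 3 target lists and no control list, with a fold of 7.01 in wild-type replicate 1 and FLAG-TET2 folds of 5.47 and 5.88. The common region 25.5 kb into the gene (133518184 to 133519187) had wild-type folds of 9.54 and 5.52 and FLAG-TET2 folds of 9.06 and 5.71. All 4 regions of Tet2 found in every target list overlapped the gene span, and exons and introns were not given in the gene table used here.

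**Figure D2:**
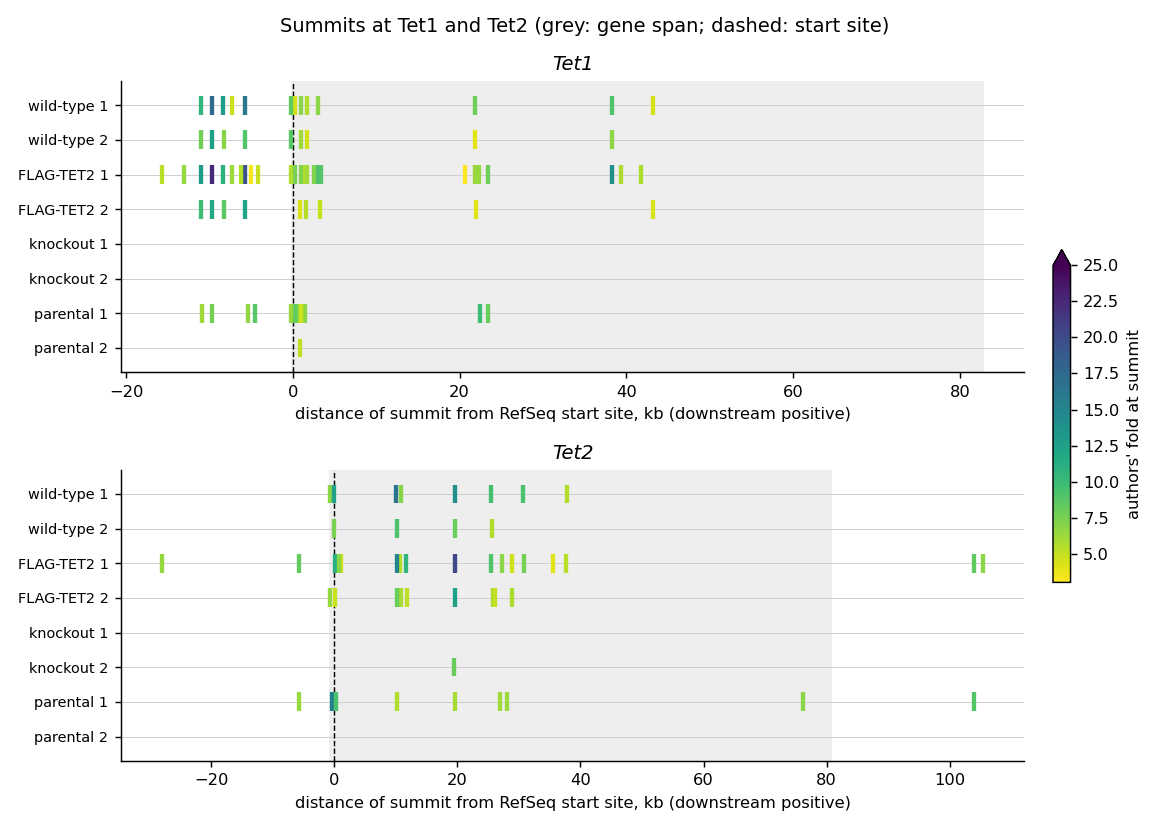
Peak summits in each of the 8 lists (rows) by distance from the RefSeq start site of Tet1 and Tet2 (x axis, kb, downstream positive), coloured by the authors' fold. Grey marks the gene span. At Tet1 the 4 target lists line up at 5.70, 8.32, 9.74 and 11 kb upstream, while both knockout rows are empty. At Tet2 they line up at 10.1 and 19.6 kb into the gene.

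The start of Tet2 carried a broad region of 1702 bp (133543511 to 133545212) with peaks in all 4 target lists and in parental replicate 1. The highest folds of the lists there were 12.2 and 7.39 for wild-type and 11.1 and 6.60 for FLAG-TET2, against 15.4 in parental replicate 1. These folds did not all belong to the same place in the region. Several lists had more than 1 peak in this region. Each target list had a summit close to the start site, at 1 and 8 bp in wild-type and 68 and 81 bp in FLAG-TET2. Wild-type replicate 1 had another at −671 bp, FLAG-TET2 replicate 1 at 784 bp and FLAG-TET2 replicate 2 at −647 bp, the last being its leading one. The parental replicate 1 summits were at −357 bp, with the fold of 15.4, and at 240 bp, with a fold of 9.21. In wild-type lists and FLAG-TET2 replicate 1 the highest folds belonged to the summits close to the start site. In FLAG-TET2 replicate 2 the summit close to the start site had a fold of 4.79. The RefSeq table holds 32851 windows, not limited to protein-coding genes, with a median of 7 CG dinucleotides. The promoter window of Tet2 (chr3:133544341-133544640, minus strand) held 57 in 300 bases, a number that 0.152% of them reach or exceed. Its G and C content was 81.3%. It is shown, with CG in capitals, because a tandem repeat fills most of it:
Tet2 promoter: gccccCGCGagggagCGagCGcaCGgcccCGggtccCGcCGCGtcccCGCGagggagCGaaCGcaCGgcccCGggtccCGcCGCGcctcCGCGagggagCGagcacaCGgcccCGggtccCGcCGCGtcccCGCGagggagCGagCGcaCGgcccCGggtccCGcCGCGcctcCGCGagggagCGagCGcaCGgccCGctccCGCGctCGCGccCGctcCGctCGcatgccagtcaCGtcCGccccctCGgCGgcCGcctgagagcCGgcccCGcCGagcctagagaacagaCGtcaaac
The 12-base string CCGCGAGGGAGC occurred 5 times in this window, each 42 bases after the last, and 2.92% of all windows hold some 12-base string as often. Counted as 42 bases each, the 5 units took up 210 bases, from −246 to −37 bp. They held 45 of the 57 CG dinucleotides, 10 of them in unit 5, which is a partial copy. They are aligned here with bases that differ from unit 1 in capitals:
Unit 1: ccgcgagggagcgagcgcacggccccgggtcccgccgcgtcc
Unit 2: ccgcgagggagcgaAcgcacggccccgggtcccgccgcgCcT
Unit 3: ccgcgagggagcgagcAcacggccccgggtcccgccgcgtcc
Unit 4: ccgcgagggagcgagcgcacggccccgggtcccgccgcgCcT
Unit 5: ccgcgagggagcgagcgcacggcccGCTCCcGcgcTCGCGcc
Unit 3 differed from unit 1 at 1 position (G17A, counted from the 5′ end of the unit), unit 4 at 2 (T40C and C42T) and unit 2 at 3 (G15A, T40C and C42T). Unit 5 matched unit 1 at 31 of 42 positions, with all 11 differences at positions 26 to 40. Peak lists do not show how reads were placed in such repeats, and their part in the shape of this region was not tested.

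Tet3 lies on the minus strand of chromosome 6 (83362373 to 83457208, mm10; gene ID 194388). It showed each kind of region side by side. A common region 19.7 kb from the start site (83421740 to 83422124) had wild-type folds of 12 and 8.79 and FLAG-TET2 folds of 24.4 and 9.52, the highest target fold at any of the 6 genes. It ranked above 97.4% and 94.6% of wild-type peaks and 97.2% and 90.0% of FLAG-TET2 peaks. In contrast, 2 regions were found with the FLAG gel whether or not the tag was there, and never with the antibody. The region at −12.2 kb (83453714 to 83454053) had folds of 22.6 and 12.6 in FLAG-TET2, against 21.9 and 13.3 in parental lists. The region 67.2 kb into the gene (83374345 to 83374630) had folds of 15.9 and 7.75 in FLAG-TET2, against 11.1 and 7.65 in parental lists, with all 4 summits within 16 bp. Such a region, shared by the 4 FLAG gel lists and missing from the antibody lists, was found at 2 of 6 genes (Tet3 and Ogt), beside 15.2% of genes with a peak. A further region, at −14.9 kb near the upstream edge of the span (83456150 to 83457009), had wild-type folds of 10.7 and 8.79, against 7.04 and 10.3 in knockout lists. It also had a fold of 6.12 in FLAG-TET2 replicate 1 and of 7.02 in parental replicate 1. A knockout peak was found at 3 of 6 genes (Tet2, Tet3 and Smug1), beside 43.5% of genes with a peak.

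At the RefSeq start site of Tet3 a region (83441472 to 83441907) had peaks in 3 target lists and in no control list. Its folds were 7.40 in wild-type replicate 1 and 5.99 and 4.74 in FLAG-TET2, with summits at 19, 27 and 13 bp. These peaks ranked above 60.2% of wild-type replicate 1 peaks and above 33.2% and 17.7% of FLAG-TET2 peaks. The promoter window around the start site is chr6:83441629-83441928 (minus strand). It lies inside the gene span, which reaches upstream to 83457208. The region near that edge, described above, had peaks in both knockout lists and in parental replicate 1. Among windows of the 6 genes the Tet3 window alone had peaks in at least 3 target lists and none in a control list. The share of all windows with this property was not computed. The Tet3 window is shown with CG in capitals:
Tet3 promoter: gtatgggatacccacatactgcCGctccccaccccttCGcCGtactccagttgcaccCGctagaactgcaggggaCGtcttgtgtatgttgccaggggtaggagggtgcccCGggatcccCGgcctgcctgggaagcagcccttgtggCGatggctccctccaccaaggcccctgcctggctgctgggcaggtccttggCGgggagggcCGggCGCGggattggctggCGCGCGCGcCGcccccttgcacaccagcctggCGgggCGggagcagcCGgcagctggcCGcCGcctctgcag
It held 22 CG dinucleotides, which 23.1% of all windows reach.

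Ogt lies on the plus strand of the X chromosome (101640011 to 101684351, mm10; gene ID 108155), and 4 of its 5 regions lay within 3.01 kb of its start. The region over the start site (101639848 to 101640380) had wild-type folds of 5.18 and 5.25 and FLAG-TET2 folds of 7.98 and 6.90, no knockout peak, and a fold of 6.96 in parental replicate 1. It is a common region only without that list, when 5 of 6 genes have one, beside 26.4% of genes. A neighbouring region with its summit 0.655 kb upstream (101639226 to 101639658) was in no control list, with folds of 5.82 in wild-type replicate 1 and 14.4 and 6.06 in FLAG-TET2. Another region, 3.01 kb upstream, was of the FLAG gel type, with folds of 13.7 and 8.88 in FLAG-TET2, against 13.5 and 6.93 in parental lists. The RefSeq table gives 2 windows for Ogt, and the upstream one (chrX:101639801-101640100, plus strand) is printed because its summits, from −128 to −58 bp in the target lists and at −81 bp in parental replicate 1, fall inside it:
Ogt promoter: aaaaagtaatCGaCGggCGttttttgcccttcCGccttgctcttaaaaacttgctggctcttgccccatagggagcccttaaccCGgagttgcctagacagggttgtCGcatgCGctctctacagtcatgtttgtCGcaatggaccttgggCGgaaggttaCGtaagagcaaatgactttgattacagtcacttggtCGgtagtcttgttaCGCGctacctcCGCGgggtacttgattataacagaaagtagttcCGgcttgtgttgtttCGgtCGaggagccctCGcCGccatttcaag

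Tdg lies on the plus strand of chromosome 10 (82629814 to 82650799, mm10; gene ID 21665) and its span overlaps that of Glt8d2. All but 1 of its peaks fell in a single region of 1062 bp across its start (82629254 to 82630315). The higher folds belonged to the FLAG gel, with and without the tag: 9.46 and 7.15 in FLAG-TET2, against 13 and 7.91 in parental replicates 1 and 2. With the antibody, wild-type replicate 1 reached 4.51, above 7.95% of its list, wild-type replicate 2 had no peak and neither did the knockout lists. The window (chr10:82629588-82629887, plus strand) was the only one of the 6 genes with a peak in both parental lists. The share of all windows with this property was not computed. The Tdg window is shown for contrast:
Tdg promoter: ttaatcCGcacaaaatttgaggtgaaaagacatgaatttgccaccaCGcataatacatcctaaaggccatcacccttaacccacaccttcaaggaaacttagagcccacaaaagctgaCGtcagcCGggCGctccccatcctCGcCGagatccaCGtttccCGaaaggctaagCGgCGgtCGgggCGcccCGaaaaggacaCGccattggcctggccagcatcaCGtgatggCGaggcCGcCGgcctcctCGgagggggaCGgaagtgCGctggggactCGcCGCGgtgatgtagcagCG

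Smug1 lies on the minus strand of chromosome 15 (103153290 to 103168939, mm10; gene ID 71726), with Cbx5 22.6 kb upstream and Hoxc4 116 kb downstream. Its common region (103134710 to 103135036) lay beyond the far end of the gene, 18.3 kb outside the span and 28.4 kb from the start site. Its folds were 10.6 and 8.89 for wild-type and 7.23 and 4.64 for FLAG-TET2, and the last of these ranked above 7.11% of its list. With a stricter threshold, a −log10 q of at least 5, the region was no longer common, and within 10 kb of the gene there was none. Upstream, a region lay 6.51 kb from the start site but only 0.68 kb outside the span, which reaches beyond that site. It had folds of 6.14 in wild-type replicate 1 and 7.23 in FLAG-TET2 replicate 1, against 6.64 in knockout replicate 2. A region 14.0 kb upstream had a fold of 5.26 in FLAG-TET2 replicate 1, against 7.08 and 5.75 in parental lists. The start of Smug1 carried a region 0.175 kb into the gene with folds of 7.84 and 5.73 in FLAG-TET2 and 8.59 in parental replicate 1, and no peak in the antibody lists.

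**Figure D3:**
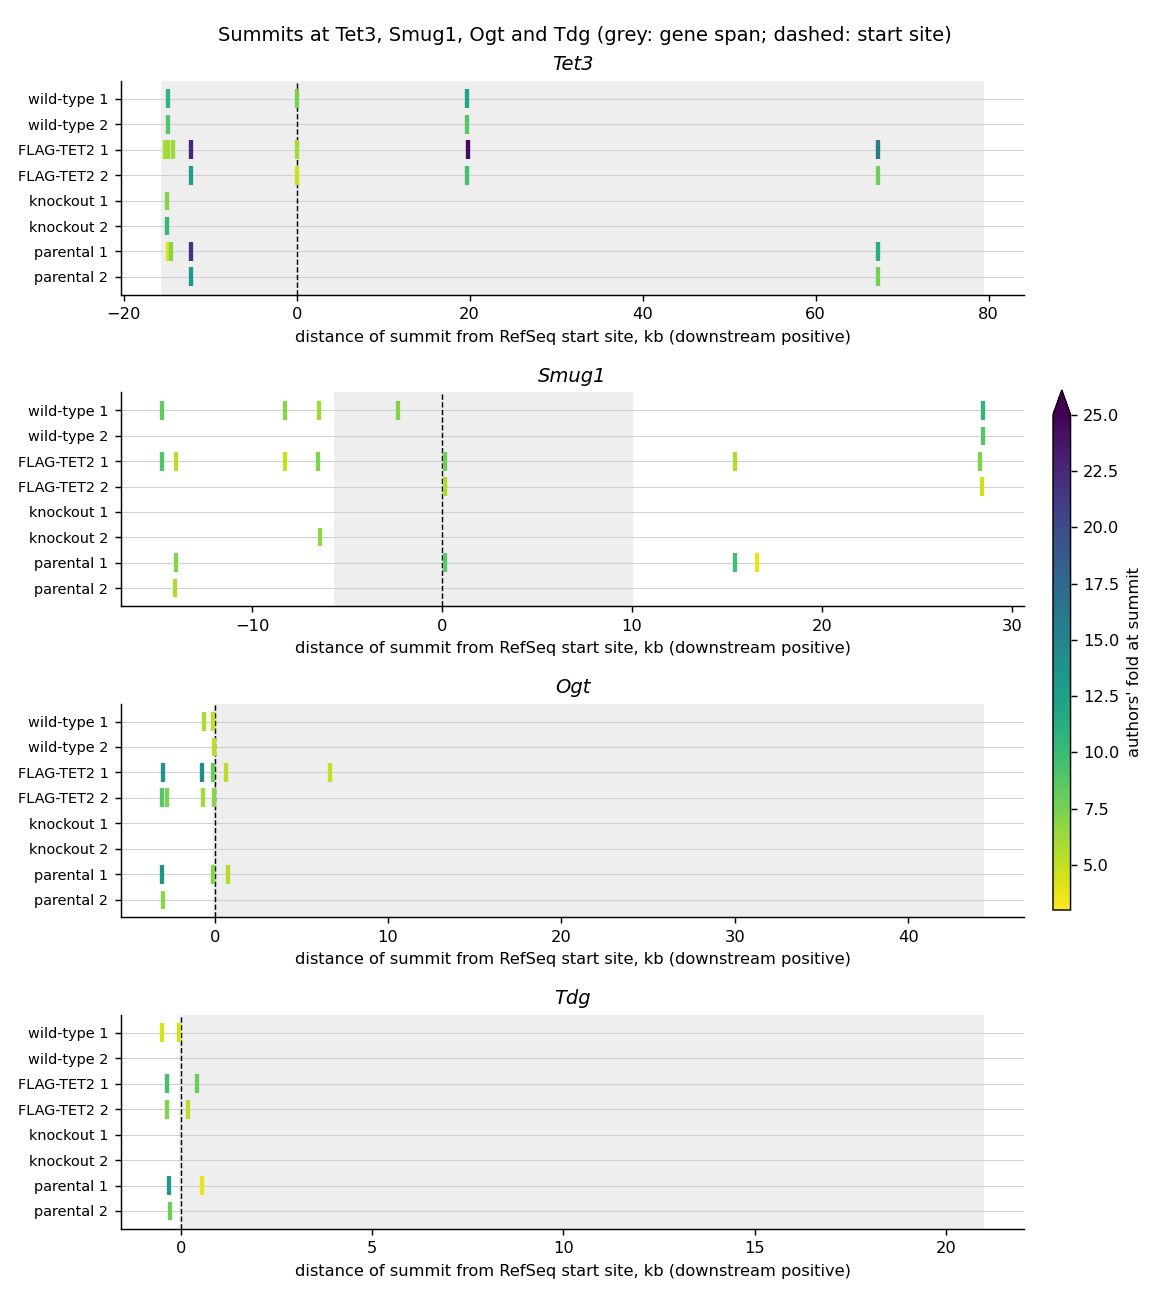
Peak summits in each of the 8 lists (rows) by distance from the RefSeq start site of Tet3, Smug1, Ogt and Tdg (x axis, kb, downstream positive), coloured by the authors' fold. Grey marks the gene span. At Tet3 the summits 19.7 kb into the gene stand in the 4 target rows alone, and those at −12.2 and 67.2 kb in the FLAG-TET2 and parental rows alone.

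At promoters, peaks in control lists were common. A window with a peak in all 4 target lists was found for 2 of 6 genes, Tet2 and Ogt, beside 17.8% of 21263 windows of protein-coding genes. Each of the 6 genes had a peak over its window in at least 1 target list, beside 52.0% of windows. Windows of Tet1, Tet2, Tdg and Ogt, 4 of 6, also had a peak in at least 1 control list, beside 37.3%, and all of these control peaks came from parental lists. Motifs were searched on both strands as fixed strings, and a match is a description of the letters only. The GC box GGGCGG was in the windows of 5 of 6 genes, all but Tdg, and in 35.7% of the 32851 windows. Unlike the 21263 windows above, these 32851 were not limited to protein-coding genes. The Tdg window held the cAMP response element TGACGTCA (1.79% of windows), at −135 bp, and the E-box CACGTG (7.15%), at −28 bp. The Ogt window held the YY1 string ATGGCGG (4.05%) and the Tet3 window the KLF string CCACCC (31.5%). The ETS string CCGGAAG (8.86%), the octamer ATGCAAAT (1.74%) and the ESRRB string AAGGTCA (4.72%) were in no window of the 6 genes.

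**Figure D4:**
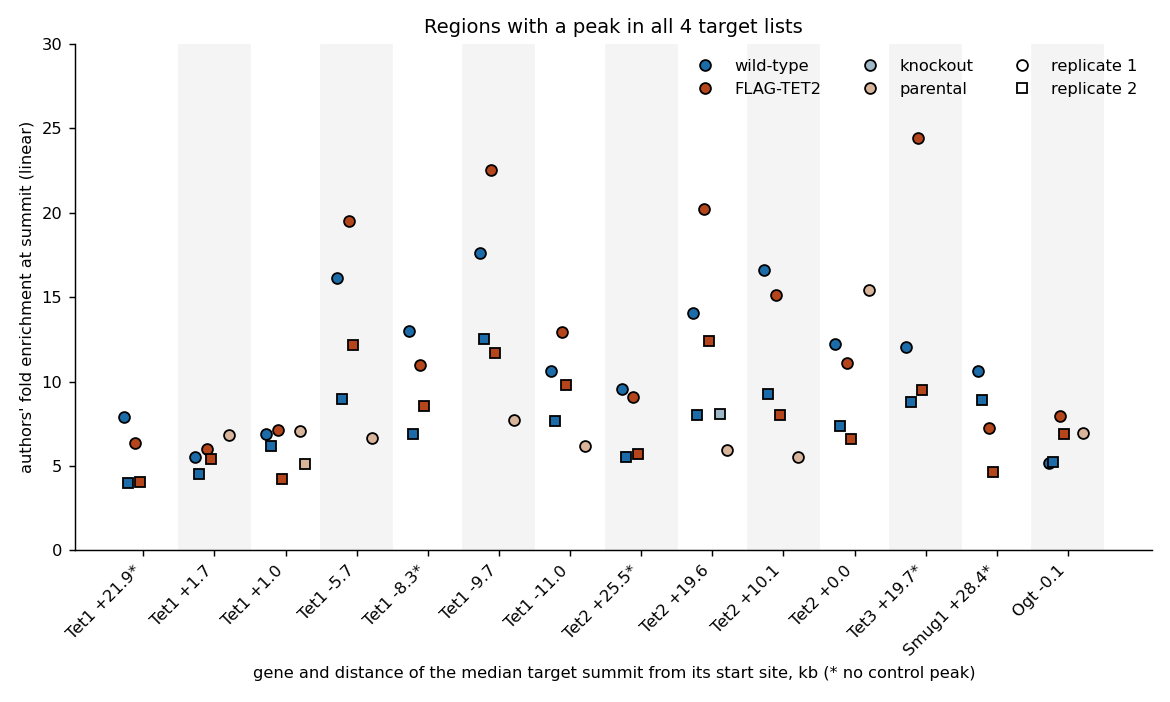
The authors' linear fold (y axis) in each list for the 14 regions with a peak in all 4 target lists, named by gene and by the distance of the median target summit from the start site in kb (x axis). Asterisks mark the 5 regions without a control peak. Each point is the peak with the highest fold of its list in the region. At 1.7 kb of Tet1 and the start of Tet2 the parental summit lay apart from the target summits. The parental replicate 1 point lies below all 4 target points at −5.7, −9.7 and −11 kb of Tet1 and 10.1 and 19.6 kb of Tet2, and above all 4 at 1.7 kb of Tet1 and the start of Tet2.

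The regions in all 4 target lists are described here by their control peaks, chiefly those of parental replicate 1. Of these 14 regions, 5 had no control peak. That is near the share over all merged regions in all 4 target lists, 4521 of 11942. For the orders of fold given next, no share over all regions was computed. They compare the highest fold of each list in a region, and the peaks compared can lie at different places. At 5 others, all more than 5 kb from a start site, parental replicate 1 had a lower fold than every target list. One of these, 19.6 kb into Tet2, also had a peak in knockout replicate 2, whose fold of 8.08 was above the 8.0 of wild-type replicate 2. The remaining 4 lay near the starts of Tet1, Tet2 and Ogt. The fold of parental replicate 1 was within the target range at 0.982 kb into Tet1 and the start of Ogt. It was above that range at 1.69 kb into Tet1 and the start of Tet2. Except at the start of Ogt, its summit lay apart from the target summits. The depth behind each list is unknown, so these orders describe the lists and were not tested. At these 14 regions replicate 1 had the higher fold of each target pair, except at the start of Ogt in wild-type (5.18 and 5.25), and the replicate 1 lists were the longer ones in both target groups.

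A list of 34 other genes of cytosine demethylation, base excision repair and O-GlcNAc was counted in the same way. All 34 had a peak and 5 had a common region, beside the 17.3% of all genes given above. These were Parp1, which senses DNA breaks, Cxxc5, a CXXC protein, Sinhcaf, a SIN3 complex subunit, Gadd45a, which has been linked to active demethylation, and Dppa3, which protects methylation in the zygote. The Parp1 region (chromosome 1, 180570811 to 180571610) was in the gene, with wild-type folds of 12.8 and 8.47 and FLAG-TET2 folds of 14.8 and 10.4. The Sinhcaf region, 10.6 kb outside its gene, had wild-type folds of 10.0 and 6.63 and FLAG-TET2 folds of 17.9 and 9.64. The Gadd45a region, 4.25 kb outside its gene, had wild-type folds of 13.8 and 9.14 and FLAG-TET2 folds of 9.44 and 10.3. The Dppa3 region lay 33.6 kb from its gene, with wild-type folds of 4.70 and 7.0 and FLAG-TET2 folds of 10.2 and 6.83. Among 10 downstream repair genes, Parp1 alone had a common region, and among 9 other glycosylases (Ung, Mbd4, Neil1 and others) and 4 O-GlcNAc pathway genes (among them Oga, which removes O-GlcNAc) there was none. The other 4 were among 11 TET cofactors and regulators. The median log2 difference was 0.69 over the 34 genes, 0.65 for glycosylases and 1.31 for TET cofactors and regulators. Every target list exceeded every control list at 2 of the 34, Cxxc5 and Dppa3, beside the 6.19% of all genes.

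Genes most like each of the 6 in peak number over the 8 lists were found by the Euclidean distance of log2(peaks + 1). For Tet1 these were Pitpnc1 (distance 0.871) and Rnf220 (0.880), and for Tet2 Igfbp2 (0.742) and Itpr1 (0.781). For Tet3 they were Mbd3 (0.326) and Ptbp3 (0.415), and for Smug1 Tmcc3 (0.616) and Rbfa (0.618). Nqo1 had the same peak number as Ogt in each of the 8 lists, and Sucla2 followed (0.322). At the distance of Sucla2 or less there were 6 genes, and at that of Rbfa or less 3. Ties were broken by the closest span length. Tdg, with 9 peaks in all, was left out of this comparison, which took genes with at least 10.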

How the data were processed

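Tools named in the submitters' processing notes, without versions or roles, are MACS2, Bowtie2, Trimmomatic and DiffBind, with the mm10 build. Each of 8 ChIP-seq libraries has its own deposited peak list, whose peak names include rmDUP and IgG. The deposited lists, in narrowPeak format, hold for each peak a score, a linear fold enrichment (ratio) at the summit, its −log10 p and −log10 q, and the summit offset, all as the authors' caller gave them. Input and IgG libraries were not analysed here. The depth of each library was not given in the sources used here, so no counting interval was computed.

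Peaks outside the 21 assembled chromosomes were left out (2 to 34 per list). The rest were assigned to RefSeq gene spans and promoter windows (GRCm38.p6). Peak numbers were compared as log2(peaks + 1) by an exact two-sided permutation test within each reagent, with Benjamini-Hochberg adjustment over 17182 genes. Steps were tested on simulated data. The 6 genes and the gene list were chosen with earlier results of these data known. By rule, the text gives each common region of the 6 genes and each of their regions with a peak in at least 3 lists, the listed genes with a common region, and for genes with at least 10 peaks the 2 genes most like them in peak number. Alternatives changed the distance, the q threshold, the list length, the merging and the libraries used.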

Additional observations from a re-analysis of the deposited data

How the results depend on the processing

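Tet1 and Tet2 had higher peak numbers in target than in control lists under each change of distance, q threshold, list length and scaling and without each library in turn, but the size of the difference moved. With each list shortened to its 2259 leading peaks, the log2 difference was 0.79 for Tet1 and 0.50 for Tet2, against 2.64 and 2.20 with whole lists. In these shortened lists it was 0 for Tdg, Smug1 and Ogt and -0.25 for Tet3. Without parental replicate 2 it was 1.37 for Tet2. Per 10000 peaks of the list it was -0.63 for Tet3. At equal list length 0 of 6 genes had a common region, beside 4.3% of genes. Common regions were found at 3 of 6 genes within 10 kb (15.2% of genes), with overlap of the span alone (12.4%) and with −log10 q of at least 5 (17.1%), each time without Smug1. With 200 bp summit windows it was 4 of 6 (19.6%), and Tet1 then had 4 such regions. Leaving out 1 library at a time gave 4 to 5 genes, the fifth being Ogt without wild-type replicate 2 (25.4% of all genes) or parental replicate 1 (26.4%). The number of genes with more peaks in every target than in every control list ranged from 0 to 2 in this way, and the 2, Tet1 and Tet2, came without parental replicate 1. Same-numbered deviations correlated at -0.11 (wild-type and knockout) and 0.21 (FLAG-TET2 and parental) over genes. With 2 libraries per group, each deviation rests on 1 difference between replicates. These values therefore cannot show whether replicate numbers paired the samples. A replicate block, or the crossed pairing chosen after seeing the data, cannot move a mean difference (2.64 for Tet1) and cannot give an exact p below 0.125, so neither could make a call and neither bears on stability. Peak lists hold no reads, so weak binding below the authors' threshold cannot be seen.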

Other observations

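Among the listed genes, chosen here after their values were seen, Neil2, a DNA glycosylase, had 1 peak in each wild-type and each FLAG-TET2 list, 1 in each knockout list and none in parental lists. Cxxc5 had 16 and 10 peaks in wild-type lists and 0 and 3 in knockout lists, and 13 and 8 in FLAG-TET2 lists and 6 and 2 in parental lists.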
